A study of Mus musculus with 12 samples.

Results

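The MAP kinase phosphatases examined here were Dusp1, Dusp2, Dusp4, Dusp5, Dusp6, Dusp7, Dusp10, Dusp14 and Dusp16, 9 genes in all, among 18407 genes that could be tested in murine bone marrow-derived dendritic cells. Array probes were assigned to them through the RefSeq accession that each probe carries, without regard to their values. Of the 9 genes 8 had a matched probe, and all 8 passed the filter on dim probes. Dusp5 had no matched probe and is not analysed here. Dusp14 and Dusp16 had 2 probes each, so the 8 genes were read by 10 probes.

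The cells came from female mice aged 6 to 8 weeks. Marrow was cultured with GM-CSF at 20 ng/ml, and the non-adherent or loosely adherent cells of day 7 served as immature dendritic cells. They were given 300 µg/ml of nanoparticles of γ-PGA, poly(γ-glutamic acid), a biodegradable polymer, and RNA was taken at 0, 6, 12 and 24 h, with 3 samples per time that the design describes as independent experiments. All 4 groups shared the culture, the growth factor and the sex of the mice, and the 0 h group stands for the start of the exposure. The samples include no untreated culture kept for the same hours, and the effect of exposure and that of time in culture cannot be told apart. The labels name no mouse strain. The RNA is that of whole cultures, in which fewer cells of a type and less RNA per cell cannot be told apart.

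MAP kinases (ERK, JNK and p38) are switched on when an upstream kinase phosphorylates a threonine and a tyrosine in their activation loop, and dual-specificity phosphatases switch them off by removing both phosphates. Several of these phosphatase genes are themselves induced by MAP kinase signalling and so form a negative feedback loop. In dendritic cells and macrophages this loop is known for limiting cytokine output after pathogen receptors are engaged. Dusp1, Dusp2, Dusp4 and Dusp5 encode the inducible nuclear enzymes, Dusp6 and Dusp7 cytoplasmic enzymes directed at ERK, Dusp10 and Dusp16 enzymes directed at JNK and p38, and Dusp14 a small atypical enzyme without the domain that docks MAP kinases.

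Upstream sequence was examined because Dusp1 and Dusp2 lie among the members that rose and Dusp6 among those that were lower at 6 h. The RefSeq promoter table of build GRCm38.p6 matched 8 of the 9 genes, and Dusp4 had no entry. The 250 bases before the annotated start are printed for these 3 genes, 5′ to 3′ on the gene's strand. Capitals mark matches, on either strand, to the cAMP response element TGACGTCA, the AP-1 element TGANTCA, the kappaB consensus or the CArG box.
Dusp1, chr17:26508473-26508722, minus strand: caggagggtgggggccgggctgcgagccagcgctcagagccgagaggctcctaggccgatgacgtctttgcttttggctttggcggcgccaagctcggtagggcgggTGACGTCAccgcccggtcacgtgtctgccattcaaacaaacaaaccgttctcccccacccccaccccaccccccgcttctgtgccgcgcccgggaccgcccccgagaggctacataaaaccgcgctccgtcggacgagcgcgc
Dusp2, chr2:127335909-127336158, plus strand: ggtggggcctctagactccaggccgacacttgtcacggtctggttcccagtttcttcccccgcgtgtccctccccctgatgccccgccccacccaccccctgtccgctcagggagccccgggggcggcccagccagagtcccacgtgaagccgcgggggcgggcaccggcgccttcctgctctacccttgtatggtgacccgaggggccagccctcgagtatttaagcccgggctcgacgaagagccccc
Dusp6, chr10:99262981-99263230, plus strand: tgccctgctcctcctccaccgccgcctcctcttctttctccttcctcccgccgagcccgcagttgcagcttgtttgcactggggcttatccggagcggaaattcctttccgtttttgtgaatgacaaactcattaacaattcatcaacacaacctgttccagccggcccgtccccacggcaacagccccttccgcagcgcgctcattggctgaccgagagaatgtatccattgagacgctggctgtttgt
The Dusp1 sequence held TGACGTCA 143 to 136 bases before the start, between GC boxes (GGGCGG or its complement) at 150 to 145 and at 135 to 130 bases. No other member with an entry held it, and 1.55% of 32851 promoters of this length did. The Dusp2 and Dusp6 sequences held none of the capitalised motifs, and the Dusp2 sequence held 3 GC boxes. GC boxes were found in 6 of the 8 members and in 32.7% of all promoters. The AP-1 element and the kappaB consensus were found in 0 of 8 members, against 6.75% and 7.25% of all promoters, and the TATAAA box in 0 of 8 against 12.4%. The CArG box, bound by serum response factor, was found in 1 member, Dusp5, and in 1.47% of all promoters. No 2 different motifs overlapped in these windows. GC content was 56.4% to 77.2% in the members, with a median of 52.4% over all promoters. A match is a description of letters in this window and not a measured binding site.

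The deposited data hold 2 sources of values for the same 12 samples, and they do not give the same account. The scanner values are the logarithm to base 2 of the processed spot intensity minus that of the array's 75th percentile, so 0 marks the brightness of that percentile. The value table holds, for each probe, its value divided by the median of the 0 h samples, on a linear scale. Across the 18407 genes the log2 changes against 0 h correlated between the sources with Pearson's r of 0.73 at 6 h, 0.54 at 12 h and -0.07 at 24 h, a description across genes, which are not independent replicates. Between the scanner arrays at 24 h and those at 0 h the mean correlation was 0.991, and between those at 24 h and 12 h it was 0.91, whereas in the table it was 0.896 between columns at 24 h and 12 h and 0.742 between those at 24 h and 6 h. Results at 24 h are therefore given for each source apart, and the cause of the disagreement was not tested, nor was whether the labels of either source were exchanged. Between 50.9% and 59.6% of spots were well above background, and the 75th percentile lay between 339 and 472 intensity units. The arrays lay on 3 slides, with the 0 h arrays on the first, the 24 h arrays on the third, and those at 6 and 12 h divided over neighbouring slides. All 6 dendritic cell markers (Itgax, H2-Aa, H2-Ab1, Cd74, Flt3 and Zbtb46) were well above background on every array at 0 h and at 24 h, and 5 of 6 were at 6 and at 12 h, where Flt3 was not above it on all arrays.

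Calls required both an adjusted p below 0.05, from limma with Benjamini-Hochberg adjustment over all genes tested, and a change of at least 2-fold. At 6 h against 0 h the members called higher were Dusp1, Dusp2, Dusp4, Dusp14 and Dusp16 in the scanner values, 5 of 8, where 10.2% of all genes were called higher, and Dusp7 was the 1 called lower, where 15.9% were. In the value table Dusp2, Dusp4, Dusp14 and Dusp16, or 4 of 8, were called higher, against 13.3% of all genes, and Dusp6 and Dusp7 lower, against 11.8%. The members called at 12 h against 0 h were those called at 6 h in each source, where 13.7% of all genes were called higher and 16.9% lower by the scanner and 15.7% and 12.1% in the table. These counts include Dusp4, whose probe passed the filter only through the groups at 6 h and 12 h, so its calls are not taken as support. The median log2 change of the 8 members was 2.22 at 6 h and 3.32 at 12 h in the scanner values, with -0.06 and -0.03 over all genes. It was 1.17 and 1.21 in the table, with 0.14 and 0.22 over all genes. Subtracting each column's median from the table moved the share of calls that were higher at 12 h from 56.5% to 40.3%, and quantile normalization moved it to 45.2%, with 6 and 5 members called.

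**Figure D1:**
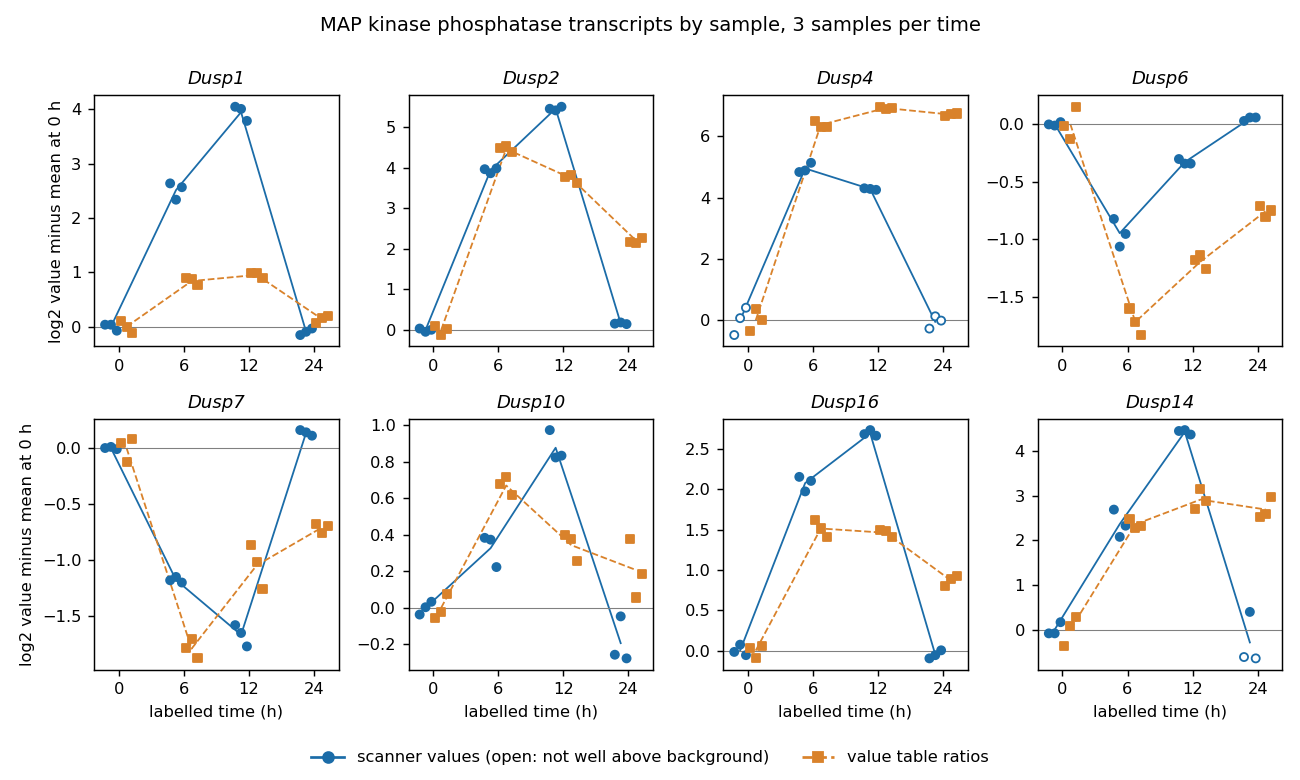
Log2 value of each sample minus the mean at 0 h (vertical axis) against labelled time in hours (horizontal axis) for the 8 measured members, 3 samples per time. Circles and solid lines through the means are scanner values, open where the probe was not well above background, and squares and dashed lines are table ratios. Points of a group are set side by side. The sources meet at 6 h for Dusp14, with a log2 change of 2.36 in each, and lie apart at 24 h for Dusp2, Dusp4 and Dusp14.

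Dusp1 encodes a nuclear phosphatase that prefers p38 and JNK. Its scanner log2 level was 0.67, 0.67 and 0.56 in the 3 samples at 0 h, 3.27, 2.97 and 3.20 at 6 h, 4.68, 4.64 and 4.42 at 12 h, and 0.48, 0.54 and 0.60 at 24 h. The order was thus 12 h, 6 h and then 0 h and 24 h, whose samples overlapped. The rise was 5.72-fold at 6 h (log2 change 2.52 with an SE of 0.089, 3 samples in each group, adjusted p = 2.56e-09) and 15.4-fold at 12 h (3.95 ± 0.089, adjusted p = 7.86e-11). The table ratios of Dusp1 were 1.08, 1.00 and 0.926 at 0 h, 1.85, 1.82 and 1.69 at 6 h, 1.99, 1.98 and 1.85 at 12 h, and 1.05, 1.12 and 1.15 at 24 h. All samples at 6 and 12 h lay above those at 0 h there too, but the log2 changes, 0.84 ± 0.068 at 6 h and 0.95 ± 0.068 at 12 h, stayed under 2-fold. Leaving out 0 h replicate 1 brought the table's change at 12 h to 1.01, past 2-fold.

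Dusp2, a nuclear phosphatase of ERK and p38 found mainly in haematopoietic cells, was near 0.75 at 0 h in the scanner values, with 0.79, 0.71 and 0.76 in the 3 samples. Its level was 4.72, 4.62 and 4.74 at 6 h, 6.21, 6.17 and 6.26 at 12 h, and 0.91, 0.94 and 0.90 at 24 h. No 2 times overlapped, and the 24 h arrays lay just above those at 0 h. Dusp2 rose 15.4-fold at 6 h (3.94 ± 0.045, adjusted p = 4.19e-12) and 44.1-fold at 12 h (5.46 ± 0.045, adjusted p = 3.70e-13). In the table the ratios were 1.05, 0.904 and 1.00 at 0 h, 22.0, 22.6 and 20.5 at 6 h, 13.4, 13.8 and 12.2 at 12 h, and 4.44, 4.39 and 4.74 at 24 h. The table's order was therefore 6 h, 12 h, 24 h and 0 h with no overlap, in place of the scanner's peak at 12 h. The table's rises were 22.0-fold at 6 h (4.46 ± 0.073) and 13.3-fold at 12 h (3.74 ± 0.073).

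Dusp4, a nuclear phosphatase of ERK and JNK, was not well above background on any of the 3 arrays at 0 h or at 24 h. Its scanner log2 level was -5.50, -4.95 and -4.61 at 0 h, -0.19, -0.14 and 0.11 at 6 h, -0.72, -0.74 and -0.77 at 12 h, and -5.29, -4.89 and -5.03 at 24 h. The samples at 6 h and 12 h were all above background and lay apart from each other, with 6 h the higher. Because the 0 h group gives only a bound, the mean at 6 h was set against the lowest signal still above background on each array. On that scale Dusp4 was at least 21.5-fold higher at 6 h (adjusted p = 5.67e-09) and at least 13.5-fold higher at 12 h (adjusted p = 1.37e-08). The p-values beside such bounds belong to the fit on the measured levels, here -5.02 on average at 0 h. Dusp4 passed the filter only through the groups at 6 h and 12 h, where it was high. Its p-values therefore describe the fit and are not taken as support. With the normexp correction, which used an offset of 50, the fitted log2 changes of Dusp4 were 2.26 at 6 h and 1.82 at 12 h, against 4.95 and 4.28. As folds these are 4.79 and 3.53, below the bounds just given, which hold for the main background treatment only. The table ratios of Dusp4 were 0.786, 1.28 and 1.00 at 0 h, 91.0, 79.6 and 78.3 at 6 h, 125, 117 and 121 at 12 h, and 100, 105 and 107 at 24 h. These are rises of 82.6-fold at 6 h (6.37 ± 0.14) and 121-fold at 12 h (6.91 ± 0.14), where the denominator is a probe that the scanner did not call above background at 0 h.

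Dusp6 and Dusp7, the ERK-directed cytoplasmic enzymes, lay lower at 6 h than at 0 h in every sample of both sources. The scanner log2 level of Dusp6 was 3.73, 3.72 and 3.75 at 0 h, 2.91, 2.67 and 2.78 at 6 h, 3.43, 3.39 and 3.39 at 12 h, and 3.76, 3.79 and 3.79 at 24 h. The log2 difference was -0.94 ± 0.054 at 6 h (adjusted p = 9.65e-08) and -0.33 ± 0.054 at 12 h (adjusted p = 0.00029), neither reaching 2-fold. Quantile normalization gave -1.12 at 6 h, and leaving out 6 h replicate 1 gave -1.0, both at or past the 2-fold limit. The Dusp6 ratios in the table were 1.00, 0.923 and 1.13 at 0 h, 0.334, 0.308 and 0.284 at 6 h, 0.448, 0.460 and 0.422 at 12 h, and 0.620, 0.579 and 0.603 at 24 h. The table had 6 h lowest, then 12 h, 24 h and 0 h, with no overlap between times. Dusp6 fell there by 1.72 ± 0.082 on the log2 scale at 6 h (adjusted p = 2.57e-08) and by 1.19 ± 0.082 at 12 h (adjusted p = 3.75e-07).

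Dusp7 was the only member called lower in both sources at 6 h and at 12 h. Dusp6 was lower in both sources too, but was called in the table only. The scanner log2 level of Dusp7 was 0.80, 0.81 and 0.79 at 0 h, -0.38, -0.35 and -0.40 at 6 h, -0.78, -0.85 and -0.97 at 12 h, and 0.96, 0.94 and 0.91 at 24 h. The 12 h arrays were the lowest and no 2 times overlapped. The fall was 2.26-fold at 6 h (log2 change -1.18 ± 0.047, adjusted p = 6.19e-09) and 3.17-fold at 12 h (-1.67 ± 0.047, adjusted p = 3.76e-10). With the normexp background correction the change at 6 h was -0.89, under 2-fold. In the table the ratios of Dusp7 were 1.00, 0.888 and 1.03 at 0 h, 0.280, 0.298 and 0.263 at 6 h, 0.531, 0.479 and 0.406 at 12 h, and 0.609, 0.575 and 0.598 at 24 h, so 6 h was the lowest. The table's falls were 3.46-fold at 6 h (-1.79 ± 0.098) and 2.07-fold at 12 h (-1.05 ± 0.098). The fall at 12 h did not pass 2-fold without 12 h replicate 3 (-0.95) or with quantile normalization (-0.71).

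Of the enzymes directed at JNK and p38, Dusp16 rose in both sources and Dusp10 passed the threshold in neither at 6 or 12 h. The scanner log2 level of Dusp16 was 1.84, 1.93 and 1.80 at 0 h, 4.01, 3.83 and 3.96 at 6 h, 4.54, 4.59 and 4.52 at 12 h, and 1.76, 1.80 and 1.86 at 24 h. Samples at 0 h and 24 h overlapped, and those at 6 h and 12 h lay above both. Dusp16 rose 4.21-fold at 6 h (2.07 ± 0.057, adjusted p = 4.29e-10) and 6.45-fold at 12 h (2.69 ± 0.057, adjusted p = 5.01e-11). Its table ratios were 1.00, 0.921 and 1.01 at 0 h, 2.98, 2.79 and 2.59 at 6 h, 2.75, 2.74 and 2.58 at 12 h, and 1.71, 1.80 and 1.85 at 24 h, with 6 h and 12 h overlapping. The table's rises were 2.85-fold at 6 h (1.51 ± 0.065) and 2.75-fold at 12 h (1.46 ± 0.065). The other Dusp16 probe rose 6.12-fold at 6 h and 11.6-fold at 12 h by the scanner. In the table it rose 2.36-fold at 6 h, and at 12 h its ratio of 1.83-fold did not pass the threshold, so the 2 probes disagreed on that call.

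Dusp10 had a scanner log2 level of -2.20, -2.16 and -2.13 at 0 h, -1.78, -1.79 and -1.94 at 6 h, -1.19, -1.34 and -1.33 at 12 h, and -2.42, -2.21 and -2.44 at 24 h. All samples at 6 h and 12 h lay above those at 0 h. The log2 difference was 0.33 ± 0.072 at 6 h (adjusted p = 0.00223) and 0.87 ± 0.072 at 12 h (adjusted p = 1.47e-06), with an interval of 0.71 to 1.03 at 12 h that includes a 2-fold change. The table ratios of Dusp10 were 0.976, 1.00 and 1.07 at 0 h, 1.62, 1.67 and 1.56 at 6 h, 1.34, 1.32 and 1.21 at 12 h, and 1.32, 1.06 and 1.15 at 24 h. The log2 differences there were 0.67 ± 0.081 at 6 h and 0.34 ± 0.081 at 12 h. The larger of the differences was thus at 12 h in the scanner values and at 6 h in the table.

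Dusp14 rose with both of its probes. The probe that stands for the gene had scanner log2 levels of -4.19, -4.19 and -3.94 at 0 h, -1.42, -2.03 and -1.78 at 6 h, 0.34, 0.36 and 0.26 at 12 h, and -4.72, -3.71 and -4.75 at 24 h, where 1 of 3 arrays was above background. The times 0, 6 and 12 h did not overlap, and 0 h and 24 h did. Dusp14 rose 5.15-fold at 6 h (2.36 ± 0.26, adjusted p = 1.45e-05) and 21.5-fold at 12 h (4.43 ± 0.26, adjusted p = 9.04e-08). With the normexp correction the log2 change was 0.95 at 6 h, under 2-fold, and 2.41 at 12 h. The mean of both probes gave 3.50 and 5.80 by the scanner and 3.08 and 3.74 in the table, where the other probe was below background at 0 h. The table ratios of the first probe were 0.732, 1.00 and 1.16 at 0 h, 5.26, 4.58 and 4.76 at 6 h, 6.21, 8.32 and 6.95 at 12 h, and 5.44, 5.66 and 7.43 at 24 h, so samples at 12 h and 24 h overlapped. The table's rises were 5.13-fold at 6 h (2.36 ± 0.18) and 7.51-fold at 12 h (2.91 ± 0.18).

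The other Dusp14 probe was not well above background at 0 h or 24 h and was above it in all samples at 6 and 12 h. It was at least 8.00-fold higher at 6 h (adjusted p = 5.16e-09) and at least 46.9-fold higher at 12 h (adjusted p = 1.63e-10) in the scanner values. This probe passed the filter only through the groups at 6 h and 12 h, so its p-values describe the fit and are not taken as support. In the table it rose 14.0-fold at 6 h and 23.7-fold at 12 h, over a 0 h value that the scanner did not call above background. Both probes carry the same transcript accession, and their changes had the same direction at both times in both sources.

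**Figure D2:**
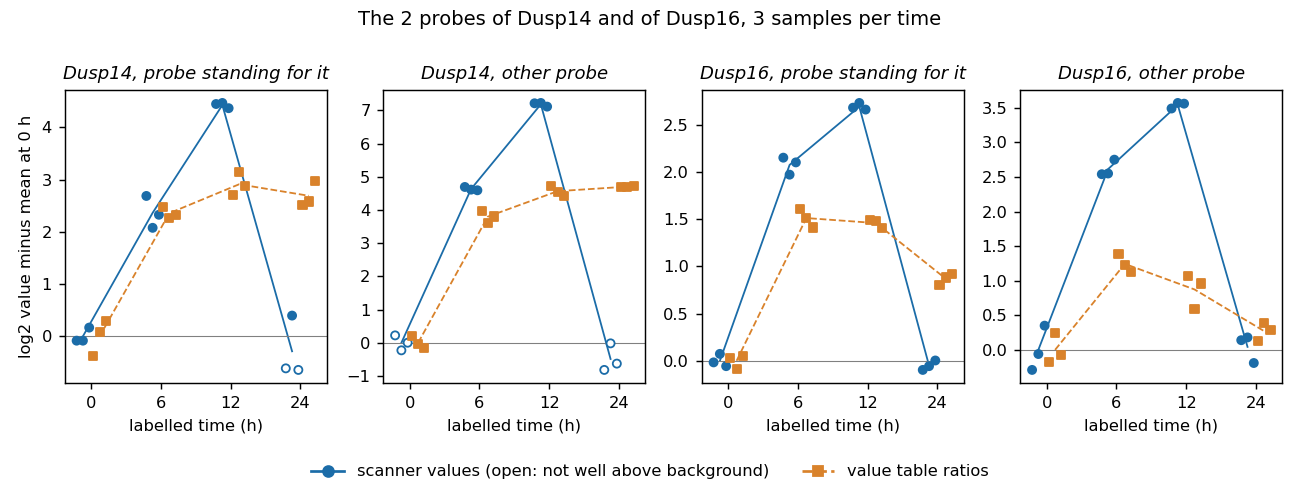
Log2 value of each sample minus the mean at 0 h (vertical axis) against labelled time in hours for the 2 probes of Dusp14 and the 2 of Dusp16, with circles for scanner values, open where not well above background, and squares for table ratios. All 4 probes lay above their 0 h mean in every sample at 6 and 12 h. The other Dusp14 probe was below background at 0 h and 24 h.

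From 6 h to 12 h the sources differed in which members moved. In the scanner values 3 of 8 members rose further, where 6.99% of all genes were called in either direction. They were Dusp1, 2.70-fold (1.43 ± 0.089, adjusted p = 6.84e-07), Dusp2, 2.87-fold (1.52 ± 0.045, adjusted p = 3.83e-09), and Dusp14, 4.18-fold (2.06 ± 0.26, adjusted p = 0.000103). In the table limma called 0 of 8, where 5.8% of all genes were called. Of the 8, 6 had an adjusted p under 0.05, up to 0.0297 for Dusp14, but changes under 2-fold. Among them Dusp2 was lower at 12 h than at 6 h in every table sample (log2 difference -0.72 ± 0.073), where the scanner had it higher. Dusp7 likewise had a difference of -0.49 ± 0.047 in the scanner values and of 0.74 ± 0.098 in the table. Signs were also opposite for Dusp4 (-0.67 ± 0.2 by the scanner, 0.55 ± 0.14 in the table) and Dusp10 (0.54 ± 0.072 and -0.33 ± 0.081). Dusp16 had 0.62 ± 0.057 by the scanner and -0.05 ± 0.065 in the table.

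At 24 h the scanner values and the table gave different accounts of the members. By the scanner 0 of 8 members were called by limma in either direction against 0 h, where 0.695% of all genes were called higher and 0.141% lower, and 3 of the 8 (Dusp2, Dusp7 and Dusp10) had an unadjusted p under 0.05. Of the 154 genes called 83.1% were higher, against 39.1% of 23 with slide as a block and 25% of 8 with the normexp correction. The log2 differences ran from -0.29 ± 0.26 for Dusp14 to 0.16 ± 0.045 for Dusp2 (adjusted p = 0.0802). Dusp14 was above background on 1 of 3 arrays at 24 h. Dusp4 was above it on no array at 0 h or 24 h, so this comparison gives no size of change for Dusp4. In the table the members called higher were 3 of 8, where 13.3% of all genes were, and 0 of 8 lower, where 13% were. These were Dusp4, 104-fold (6.70 ± 0.14, adjusted p = 7.02e-11) and 6.06 with quantile normalization, Dusp14, 6.46-fold (2.69 ± 0.18, adjusted p = 3.37e-07), and Dusp2, 4.6-fold (2.20 ± 0.073, adjusted p = 1.46e-09). The denominator of Dusp4 is a probe that the scanner did not call above background at 0 h. Its p-value describes the fit and is not taken as support. Dusp6 (-0.75 ± 0.082) and Dusp7 (-0.71 ± 0.098) were lower and Dusp16 (0.87 ± 0.065) was higher than at 0 h in every table sample, all 3 within 2-fold.

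Between 12 h and 24 h the scanner values had 7 of 8 members called, where 31% of all genes were called. Dusp1, Dusp2, Dusp4, Dusp10, Dusp14 and Dusp16 were lower in the arrays labelled 24 h and Dusp7 was higher. Those arrays are the ones that correlated at 0.991 with the 0 h arrays over all genes. The falls included 39.4-fold for Dusp2 (-5.30 ± 0.045, adjusted p = 4.47e-13) and 16.5-fold for Dusp1 (-4.04 ± 0.089, adjusted p = 6.72e-11). For Dusp4, whose call is again not taken as support, the fall was at least 17.7-fold, and 4.23-fold with the normexp correction. That of Dusp10 was 2.09-fold (-1.07 ± 0.072) and was under 2-fold, at -0.78, with the normexp correction. In the table only Dusp2 was called, 2.90-fold lower (-1.54 ± 0.073, adjusted p = 3.16e-07), where 4.57% of all genes were called. Fitted without the samples labelled 24 h, the members called at 6 h and at 12 h against 0 h were again 6 in each source.

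**Figure D3:**
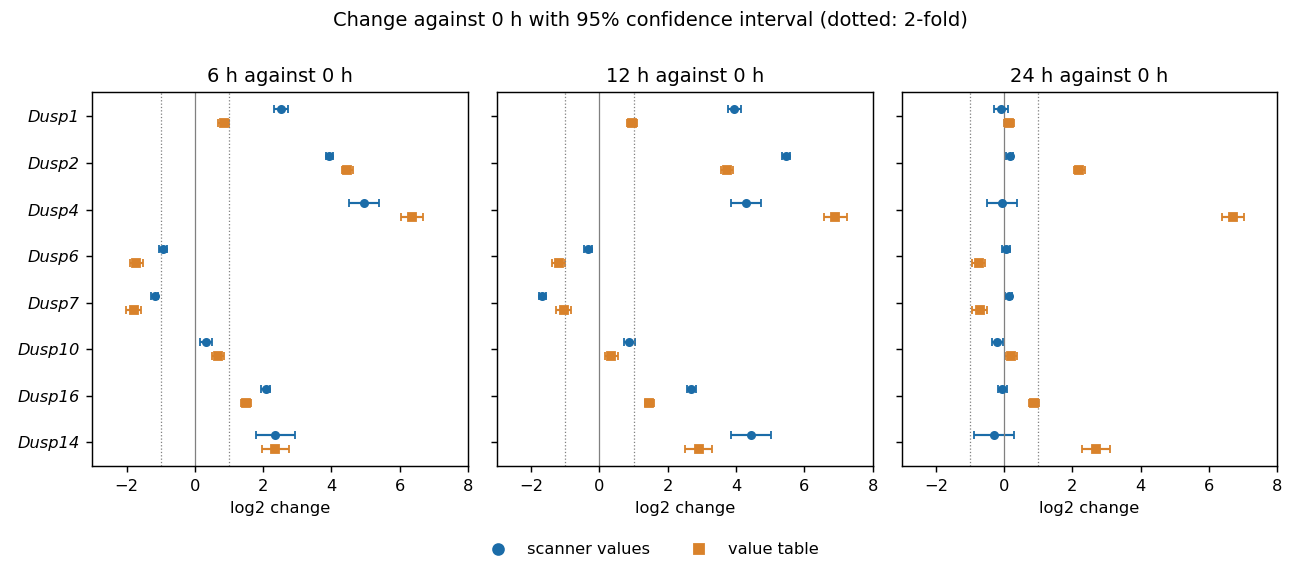
Log2 change against 0 h (horizontal axis) for each of the 8 members at 6, 12 and 24 h, with bars for the 95% confidence interval from limma, n = 3 per group. Circles are scanner values, squares are table ratios, and dotted lines mark 2-fold. The scanner points of Dusp4 use levels below background at 0 h. At 24 h the scanner points lie between -0.29 and 0.16 while the table's Dusp4, Dusp14 and Dusp2 lie at 6.70, 2.69 and 2.20.

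The difference between the sources was tested on the scanner log2 level minus the table log2 ratio of each sample. At 6 h 2 of 8 members were called different, by adjusted p and at least 2-fold, where 14.9% of all genes were. The change of Dusp1 was larger by the scanner by 1.68 ± 0.089 on the log2 scale (adjusted p = 2.82e-07), and the second was Dusp4. Members within 2-fold could differ too, as Dusp6 did by 0.78 ± 0.083 (adjusted p = 3.4e-05). For Dusp14 the difference was 0.01 ± 0.31, with an interval of -0.69 to 0.70. At 12 h 5 of 8 were called different, where 29.5% of all genes were. Scanner changes were larger for Dusp1 (3.00 ± 0.089), Dusp2 (1.73 ± 0.093), Dusp14 (1.52 ± 0.31) and Dusp16 (1.23 ± 0.083), and Dusp4 was the fifth. At 24 h 3 of 8 were called different, where 27.7% of all genes were. The scanner change was smaller for Dusp2 (-2.04 ± 0.093) and for Dusp14 (-2.98 ± 0.31), which was above background on 1 of 3 scanner arrays at 24 h, and the third was Dusp4. The members not called at 12 h or at 24 h differed by less than 2-fold, each with an adjusted p below 0.05. The calls on Dusp4 rest on scanner levels below background on all arrays at 0 h and 24 h, so no size or direction of its difference is read from them.

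With slide as a block, which equals contrasts within slides for neighbouring times, the scanner log2 changes at 6 h were 2.64 for Dusp1, 3.97 for Dusp2, -0.82 for Dusp6, -1.18 for Dusp7, 0.38 for Dusp10, 2.69 for Dusp14 and 2.15 for Dusp16. They rest on the 1 array at 6 h that shared a slide with those at 0 h, which is assumed to vary like the others. At 12 h, chained over 2 slides, they were 4.21, 5.48, -0.14, -1.62, 0.97, 4.94 and 2.82 in the same order. The numbers of members called at 6, 12 and 24 h against 0 h were 6, 6 and 0 with the block, as without it. The 0 h and 24 h arrays shared no slide.

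Genes whose values ran most like each member were taken over the 9 samples at 0, 6 and 12 h, as the 2 of 11382 named genes with the highest value of the lower of both sources' Pearson correlations. These samples form 3 groups, so a correlation mostly follows the order of the times, and it is given as a description. Dusp2 ran most like Vcam1, a vascular adhesion molecule (0.999 in each source), and Arl5c (0.998 in each). Dusp4 ran most like Arg2, the mitochondrial arginase (0.995 by the scanner and 0.998 in the table), and Malt1, a protease of NF-kB signalling (0.994 and 0.997). Dusp16 ran most like Znrf1 and Fyb, and Dusp14 like Il18bp and Ramp3. Of the members that were lower at 6 h, Dusp6 ran most like Pafah1b3 and the Fc receptor gene Fcgr3, and Dusp7 like Aatk and Xrcc6. Dusp10 ran most like Tnip3 and Isg20, with the lowest of these correlations, 0.985 to 0.988.

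The rest of the pathway was read from 7 fixed lists. At 6 h 10.2% of all genes were called higher and 15.9% lower by the scanner, and 13.3% and 11.8% in the table. The counts of the lists below are small and are given beside these shares as a description. Of 13 MAP kinase genes 8 passed the filter, and at 6 h 2 rose and 0 fell in each source. Mapk6, an atypical MAP kinase, rose 4.86-fold by the scanner (2.28 ± 0.08, adjusted p = 2.43e-09), against a table log2 change of 2.45 ± 0.061. Mapk15, another atypical kinase, was below background at 0 h and at least 2.52-fold higher at 6 h, with 1.99 ± 0.45 in the table. The median of the list was 0.28 by the scanner and 0.37 in the table.

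Among 7 MAP kinase kinases 0 rose and 1 fell at 6 h in each source. This was Map2k6, an activator of p38, which was below background at 6 h and at least 4.27-fold lower by the scanner (adjusted p = 7.40e-07), against a table log2 change of -6.27 ± 0.14. Map2k6 passed the filter only through the groups at 0 h and 24 h, so its p-value describes the fit and is not taken as support. Of 18 MAP3 kinases and TAB proteins 16 passed the filter, and 2 rose and 4 fell by the scanner, where 4 rose and 2 fell in the table. Map3k8, which feeds ERK downstream of Toll-like receptors, rose 2.91-fold (1.54 ± 0.084 by the scanner, 1.17 ± 0.065 in the table). Map3k2 rose as well (1.13 ± 0.15 and 1.22 ± 0.16), from a 0 h level that was well above background on 2 of 3 arrays. At 12 h it was called in neither source (0.67 ± 0.15 and 0.89 ± 0.16). Map3k4, upstream of p38 and JNK, fell (-2.21 ± 0.058 and -1.65 ± 0.08), and Map3k12 fell by the scanner (-2.27 ± 0.08) and had -0.99 ± 0.074 in the table, just under 2-fold.

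Of 10 kinases that MAP kinases activate, 2 rose and 1 fell by the scanner at 6 h, and 2 rose and 0 fell in the table. Mapkapk2, the p38 substrate that stabilises cytokine mRNAs, rose 3.28-fold (1.71 ± 0.056 by the scanner, 2.01 ± 0.093 in the table). Rps6ka2, an ERK-activated ribosomal S6 kinase, rose 3.21-fold (1.68 ± 0.063 and 1.88 ± 0.058). Mknk1 fell by the scanner (-1.26 ± 0.045) and had -0.73 ± 0.078 in the table. Of the other dual-specificity phosphatases 12 of 19 passed the filter, and 1 rose and 0 fell by the scanner, where 2 rose and 2 fell in the table. The 1 that rose by the scanner was Dusp8, which acts on JNK and p38, below background at 0 h and at least 2.43-fold higher at 6 h (adjusted p = 7.65e-08), with 3.91 ± 0.17 in the table over that same 0 h probe. Dusp8 passed the filter only through the groups at 6 h and 12 h. Its p-value belongs to the fit on the measured levels and is not taken as support. The median of these other phosphatases was -0.33 by the scanner and 0.13 in the table, beside 2.22 and 1.17 for the members. Members and lists were chosen with earlier results of these data known, so the medians are a description only.

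Of 10 tyrosine phosphatases, Sprouty and Spred genes 6 passed the filter, and 2 rose and 0 fell by the scanner, where 1 rose and 3 fell in the table. Spred1, an inhibitor of Ras-to-ERK signalling, rose in both (2.21 ± 0.23 and 1.22 ± 0.092). Spry1, another inhibitor of that route, was called in opposite directions, with 3.35 ± 0.19 by the scanner (adjusted p = 1.01e-07) and -1.14 ± 0.066 in the table. Of 13 ERK output genes 12 passed the filter, and 5 rose and 2 fell by the scanner, where 3 rose and 6 fell in the table. Phlda1 rose in both (3.46 ± 0.061 and 1.51 ± 0.059), and Ier3 rose by the scanner (3.08 ± 0.07) and had -0.73 ± 0.046 in the table. Ccnd1, the D-type cyclin, fell in both (-2.51 ± 0.055 and -2.56 ± 0.073), as did Fos, an AP-1 subunit (-1.96 ± 0.037 and -1.46 ± 0.045). The median log2 change of the ERK output genes was 0.52 by the scanner and -1.10 in the table, so it differed in sign between the sources.

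**Figure D4:**
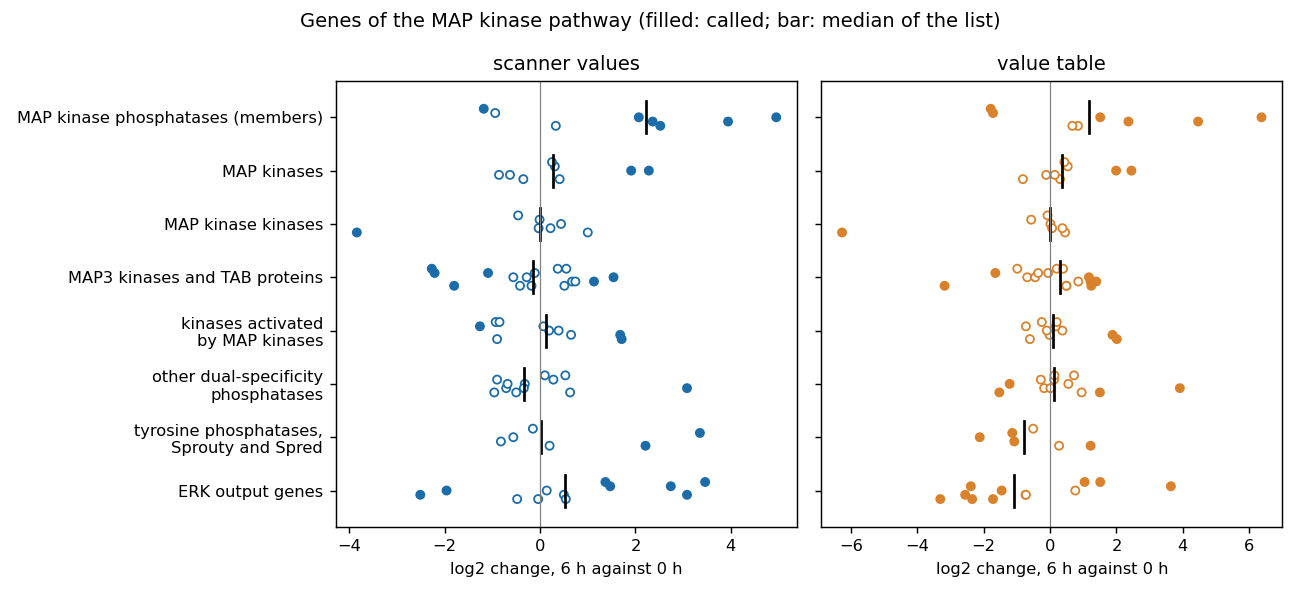
Log2 change at 6 h against 0 h (horizontal axis) for each measured gene of the members and of the 7 pathway lists, with scanner values in the left panel and table ratios in the right. Filled points were called changed, open points were not, and black bars mark the median of each list. The members' median is 2.22 by the scanner and 1.17 in the table, and the ERK output genes' median is 0.52 and -1.10.

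Markers of some other cell types moved with time as well. All 6 granulocyte markers (Elane, Mpo, S100a8, S100a9, Ngp and Ltf) were above background on every array of every group, with a summed linear signal, in units of the array's 75th percentile, of 278 to 286 at 0 h, 265 to 305 at 6 h, 310 to 356 at 12 h and 279 to 287 at 24 h. At 6 h 2 of the 6 fell by the scanner and 3 in the table, where 15.9% and 11.8% of all genes were called lower. At 24 h 0 fell by the scanner and 6 in the table, where 0.141% and 13% of all genes were. The summed signal of the 3 NK cell markers was 3.16 to 3.35 at 0 h, 0.0932 to 0.146 at 6 h, 0.501 to 0.549 at 12 h and 3.64 to 3.74 at 24 h, with 2 of 3 below background at 6 h. Of the 2 NK cell markers that passed the filter, 2 fell at 6 h by the scanner, while 1 rose and 1 fell in the table. The 3 T cell markers summed to 0.879 to 0.967 at 0 h, 0.375 to 0.558 at 6 h, 0.345 to 0.468 at 12 h and 0.958 to 0.967 at 24 h. At 12 h 2 of these 3 fell by the scanner and 1 in the table, where 16.9% and 12.1% of all genes were called lower. The 3 matched macrophage markers summed to 94.3 to 95.1 at 0 h, 124 to 138 at 6 h, 135 to 149 at 12 h and 91 to 100 at 24 h. At 6 h 0 of these 3 were called higher and 1 lower by the scanner, and 0 were called in the table. Their median log2 change at 6 h was 0.13 by the scanner and -0.93 in the table. The B cell marker sum was 0.932 to 0.997 at 0 h and 1.38 to 1.53 at 12 h, and the mast cell sum 0.834 to 0.912 and 1.51 to 1.63. At 12 h 0 B cell markers were called in either source. Of the mast cell markers 1 was called higher by the scanner, where 13.7% of all genes were, and 0 in the table. The part of these cells in the members' changes was not tested.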

How the data were processed

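Expression was measured in 12 samples of bone marrow-derived dendritic cells, 3 at each of 0, 6, 12 and 24 h, on Agilent 1-colour arrays with Cy3. The spot intensity that the authors deposited is Agilent's processed signal, background-subtracted by Feature Extraction 9.1.3.1 per the submitters' processing notes. The value table holds the authors' linear ratio per probe. In 100% of its 41262 probes the median at 0 h was 1 (tolerance 0.001), and its lowest value is 0.01. Any scaling between its columns and the genome build are not given in the sources used here.

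Control spots and 732 outlier spots were left out, log2 was taken, and the 75th percentile of each array was subtracted. The percentile was taken over the non-control spots. A probe was kept where at least 50% of its spots were well above background on every array of at least 1 group (23496 of 41174 probes). RefSeq accessions matched to a GRCm38.p6 gene table, used for names only, named 22951 probes (55.7%). Where a gene had several kept probes, the brightest on average represented it, and unnamed probes counted under their accession, which gave 18407 genes, 11580 with a symbol. Each source was fitted with limma 3.58.1 in R 4.3.3 (with data.table, version 1.17.8) as 1 fit of 4 group means with 8 residual degrees of freedom, two-sided, adjusted over all genes. The scripts were tested on simulated data. With 3 samples per group, p-values measure the spread between these samples only, and precision is limited by the number of arrays.

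All members are named. From each pathway list the 2 genes with the largest rise and the 2 with the largest fall at 6 h by the scanner are named where called. The genes most like Dusp1 are not reported here. The members, lists and markers were chosen with earlier results of these data known. Alternatives were the background correction, quantile normalization, centring, the filter, the mean of a gene's probes, slide and replicate number as blocks, leaving out each sample, and leaving out the samples labelled 24 h. The last of these, and normexp on median signals, were chosen after the data were seen.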

Additional observations from a re-analysis of the deposited data

How the results depend on the processing

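Of 231 recomputed counts of members called, 231 stayed within 1.5 times the main count. That limit includes the scanner counts with normexp, 4 against 6 at 6 h against 0 h and 6 against 7 at 24 h against 12 h. Of the single members' values 1838 kept their side of the threshold, 5 gained the call and 5 lost it. The sign changed in 10 values of 7 results, 5 of them at 24 h by the scanner, and 0 of the 10 were called. Besides those given above, subtracting each sample's median from the between-source differences carried Dusp6 at 12 h to 1.10 and Dusp16 at 24 h to -1.02, past 2-fold. With normexp the scanner log2 change of Dusp14 at 12 h against 6 h was 1.46, and those of Dusp14 and Dusp4 at 24 h against 12 h were -2.65 and -2.08. Quantile normalization gave 6.31 for Dusp4 at 12 h in the table. With the mean of all probes the table's Dusp14 at 24 h was 3.70, and between sources Dusp14 at 24 h was -4.09 and Dusp16 at 12 h 1.95. Leaving out 1 sample at a time gave 6 to 7 members at 6 h by the scanner, 5 to 7 at 12 h in the table, and the main count in each other comparison. Normexp on mean signals was not run because the files used here hold no such column, and median signals were used. Slide as a block was run on the scanner values only.

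Counts over all genes moved more. With normexp, calls at 6, 12 and 24 h against 0 h were 2577, 3064 and 8 against 4800, 5632 and 154, at 12 h against 6 h 577 against 1286, and at 24 h against 12 h 3155 against 5714. The 154 scanner calls at 24 h ranged from 24 to 291 with 1 sample left out, and were 23 with slide as a block and 96 without the filter. Quantile normalization of the table gave 3286 against 5116 at 12 h, 3168 against 4835 at 24 h, 395 against 1067 at 12 h against 6 h and 269 against 841 at 24 h against 12 h. Centring moved the share of higher calls in the table from 53% to 33.6% at 12 h against 6 h and from 30.6% to 52.7% at 24 h against 12 h, and between sources from 31.8% to 44% at 6 h and from 36.5% to 51.5% at 12 h.

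With the replicate block, the members called were 6, 6, 0, 3 and 7 by the scanner and 6, 6, 3, 0 and 1 in the table, for 6, 12 and 24 h against 0 h, 12 h against 6 h and 24 h against 12 h. Between sources they were 2, 5 and 3. All equal the counts without it, while calls over all genes at 24 h by the scanner were 86 against 154. Deviations of same-numbered samples from their group means correlated at -0.09 to 0.16 by the scanner and -0.08 to 0.23 in the table. Over 0.1 lay 2 of 18 and 1 of 18 pairs, so the numbers were not taken to pair the samples.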
